A study of Mus musculus with 12 samples.

Results

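The data cover 7 genes that mark the medium spiny neurons of the striatum, read in post-stroke mouse brains at 14 d: *Adora2a*, *Gpr6*, *Penk*, *Tac1*, *Ppp1r1b*, *Pde10a* and *Rgs9*. They were chosen by name, as the rows of the count table whose Ensembl identifiers carry these symbols, and are 7 of the 49315 genes in the table and 7 of the 20290 that passed the filter on low counts. All 7 members passed, with between 39 counts (*Gpr6*) and 3799 counts (*Pde10a*) in a single mouse. No member passed the test between recipients of *Tet2*-KO BM cells and recipients of WT BM cells. The clearest pattern was in single mice, with 1 *Tet2*-KO mouse at the bottom of all 7 genes and another at the top of 6.

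Bulk RNA-sequencing covered 12 brains, 6 per group. The recipients were male CD45.1 Pep Boy mice on a C57Bl6 background, irradiated in 2 doses with a shielded head at 8 to 12 weeks of age and transplanted after the second dose. In both groups CD45.1 *Tet2*+/+ donors gave 90% of the transplanted marrow. The remaining 10% came from CD45.2 donors, which were *Tet2*+/+ in the WT group and *Tet2*-/- in the *Tet2*-KO group, so that neurons and most transplanted cells carried intact *Tet2* in both groups. All 12 mice had 30 min of middle cerebral artery occlusion (MCAO) at 8 to 10 weeks after transplantation, and no sham-operated brain was in the table. The tissue was labelled as brain and described in the study as whole brains in one place and as whole hemispheres in another, so the striatum was only a part of each library. One label of the *Tet2*-KO samples, the treatment, names control cells. Their titles and genotypes name the knockout, and these were followed.

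Medium spiny neurons are the GABAergic projection neurons that make up most of the striatum, a region supplied by the middle cerebral artery. Those of the indirect pathway carry the dopamine D2 receptor, the adenosine receptor *Adora2a*, the orphan receptor *Gpr6* and the enkephalin precursor (*Penk*), and those of the direct pathway carry the dopamine D1 receptor and the substance P precursor (*Tac1*). Both kinds use cyclic AMP signalling, in which DARPP-32 (*Ppp1r1b*) inhibits protein phosphatase 1 once it is phosphorylated, *Pde10a* degrades cyclic nucleotides, and *Rgs9* ends signals of G protein-coupled receptors.

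The members lie on 5 chromosomes, given here on GRCm38 (mm10) with the GENCODE M21 gene limits. *Adora2a* spans chr10:75316877-75334784 and *Gpr6* chr10:41069977-41072285. *Pde10a* spans chr17:8525372-8986648, *Penk* chr4:4133531-4138819 and *Tac1* chr6:7554879-7565834. *Ppp1r1b* and *Rgs9* are both on chromosome 11, at chr11:98348404-98357796 and chr11:109225355-109298129. All are protein coding, and the counts cover their exons. The exons of *Penk* share 233 bases with *A830012C17Rik* and those of *Ppp1r1b* share 460 bases with *1700003D09Rik*, both on the opposite strand. These partners held 75 and 215 counts over all 12 mice, and whether counting used strand is not given in the sources used here.

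Since medium spiny neurons use cyclic AMP signalling, the 250 bases before the members' transcription starts were searched on both strands for the cyclic AMP response element (CRE). RefSeq promoters on GRCm38.p6 were matched for 4 of the 7 members (*Gpr6*, *Rgs9*, *Tac1* and *Pde10a*, the last with a pair of starts). The *Gpr6* window is shown whole because it holds the full element TGACGTCA, in capitals, beginning 78 bases before the start (chr10:41072291-41072540, minus strand, 5′ to 3′). The *Tac1* stretches, chr6:7554854-7554878 and chr6:7555008-7555032 on the plus strand, each show 1 copy of the shorter core CGTCA, in capitals and at 197 and 43 bases before the RefSeq start.
Gpr6: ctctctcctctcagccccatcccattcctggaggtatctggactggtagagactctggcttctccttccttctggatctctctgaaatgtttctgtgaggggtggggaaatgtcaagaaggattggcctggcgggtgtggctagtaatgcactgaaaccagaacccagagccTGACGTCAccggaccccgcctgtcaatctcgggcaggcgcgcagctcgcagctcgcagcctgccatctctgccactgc
Tac1 first core: cctaaaattgCGTCAtttcgaacac
Tac1 second core: tctacaggctCGTCAcgcctgagat

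The core was searched as CGTCA and as its reverse complement, which reads TGACG, and the full element overlaps a core on each strand. Among promoters, 1.55% of 32851 windows of this length held the full element, while 17.8% held a core. Neither motif was in the windows of *Rgs9* and *Pde10a*. The RefSeq window of *Tac1* ends inside the gene limits that GENCODE gives, so the second stretch lies before the RefSeq start but within the GENCODE gene, and both *Pde10a* windows also lie within its GENCODE limits. The matches describe sequence and were not linked to the levels below.

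Library totals ran from 12000261 to 15340787 counts in the WT group and from 12625047 to 21049763 in the *Tet2*-KO group. Levels are CPM, the read counts relative to the TMM-adjusted total of the library. To compare levels between genes, CPM was divided by exon length in kb. On that scale *Penk* (32.4) and *Ppp1r1b* (28.5) were the highest as means over the 12 mice, followed by *Pde10a* (13.8) and *Rgs9* (7.32), and *Adora2a* (4.57), *Tac1* (4.56) and *Gpr6* (2.94) were the lowest. The ranges over single mice overlapped between *Penk* (24.6 to 41.2) and *Ppp1r1b* (up to 35.5) and between *Adora2a* (3.13 to 6.07) and *Tac1* (3.32 to 5.67), so the order within these pairs is not larger than the spread between mice. The range of *Gpr6* (1.71 to 4.58) overlapped those of *Adora2a* and *Tac1* as well. *Pde10a* (10.8 to 18.3) stood apart from both its neighbours in this order.

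Of the receptors, *Adora2a* lay between 11.6 and 18.6 CPM with WT BM cells (median 13.7) and between 9.57 and 17.8 with *Tet2*-KO BM cells (median 13.6). The highest mouse was WT replicate 2, and the groups overlapped over most of their range. Its log2 fold change, *Tet2*-KO over WT, was -0.01 with a 95% interval from -0.34 to 0.32 (edgeR quasi-likelihood test, adjusted p = 0.979, exact two-sided permutation p = 0.825, n = 6 per group). *Gpr6* ran from 3.33 to 5.52 CPM in the WT mice, with a median of 4.74, and from 3.06 to 8.18 CPM in the *Tet2*-KO mice, with a median of 6.05. Here 5 of 6 *Tet2*-KO mice were above every WT mouse and the remaining mouse, replicate 5, was below every WT mouse. The log2 fold change was 0.36 (SE 0.18, edgeR adjusted p = 0.244, exact permutation p = 0.199).

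The neuropeptide precursors differed less than *Gpr6*. *Penk* ran from 44.3 to 62.0 CPM with WT BM cells (median 51.4) and from 40.2 to 67.4 with *Tet2*-KO BM cells (median 53.7), a log2 fold change of 0.06 (SE 0.11, edgeR adjusted p = 0.805). The WT range lay inside the *Tet2*-KO range. *Tac1* was almost level in the WT group, from 13.7 to 15.4 CPM (median 15.3), and ran from 11.3 to 19.3 in the *Tet2*-KO group (median 16.8), where 4 mice were above every WT mouse. Its log2 fold change was 0.09 (SE 0.10, edgeR adjusted p = 0.620).

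The intracellular members gave similar values. *Ppp1r1b* lay between 67.8 and 84.2 CPM with WT BM cells (median 78.8) and between 61.6 and 103.9 with *Tet2*-KO BM cells (median 91.9). 4 *Tet2*-KO mice were above every WT mouse and 1 was below, and the log2 fold change was 0.20 (SE 0.10, edgeR adjusted p = 0.274, exact permutation p = 0.180). *Pde10a* ran from 160.1 to 189.1 CPM in the WT group (median 165.3) and from 138.2 to 235.4 in the *Tet2*-KO group (median 183.1), with a log2 fold change of 0.12 (SE 0.094, edgeR adjusted p = 0.460). *Rgs9* ran from 40.6 to 53.2 CPM (median 43.8) and from 39.3 to 57.9 (median 48.7), with a log2 fold change of 0.07 (SE 0.092, edgeR adjusted p = 0.683).

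**Figure D1:**
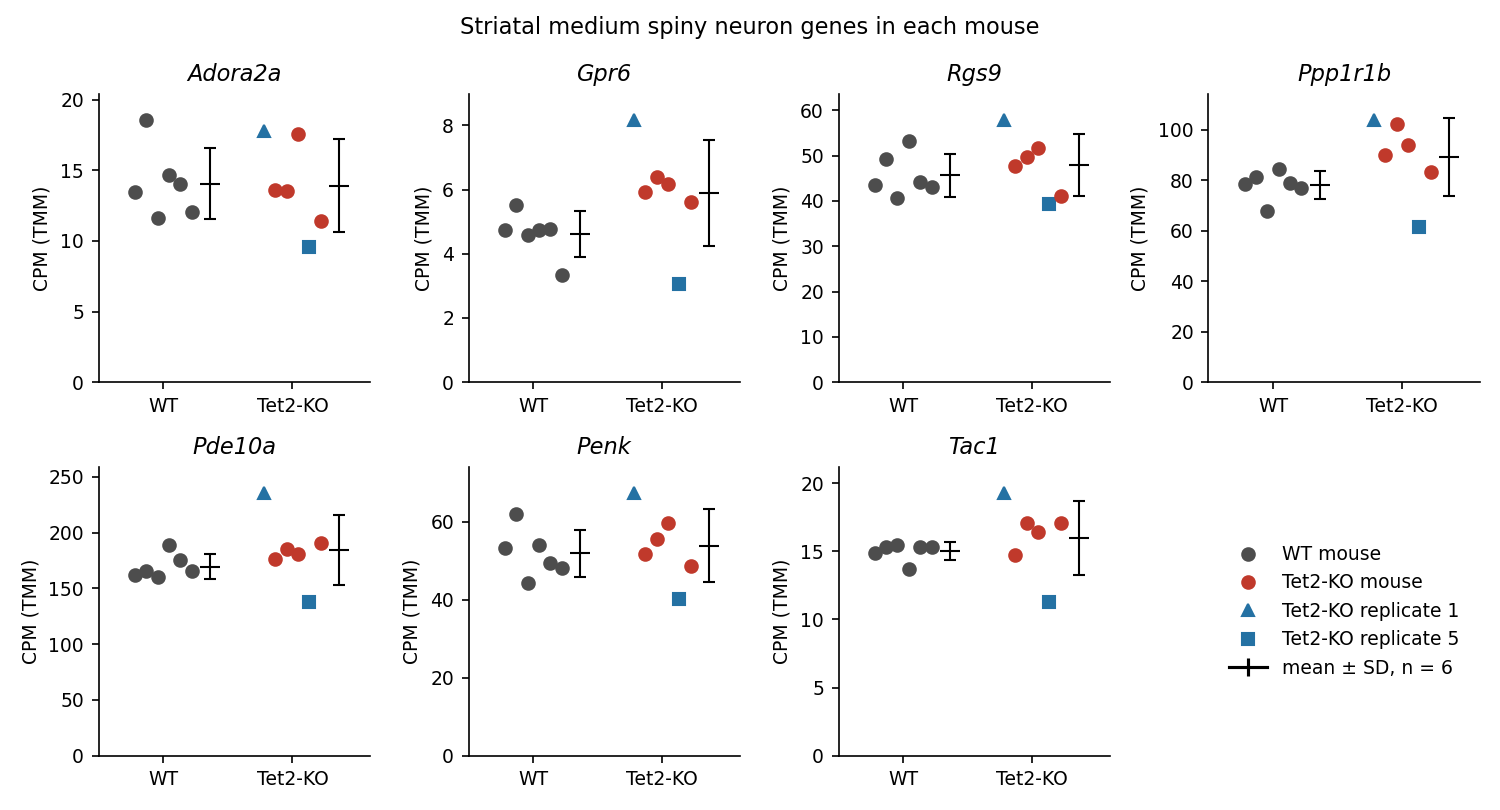
Level of each member in each mouse (y axis, CPM after TMM scaling, from 0) with WT and *Tet2*-KO BM cells (x axis), with the mean ± SD beside each group (n = 6). *Tet2*-KO replicate 5 (square) is the lowest point in all 7 panels and *Tet2*-KO replicate 1 (triangle) the highest in 6.

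None of the 7 members passed an adjusted p of 0.05, the threshold used throughout, against 0.0246% of all genes tested. None reached an unadjusted p below 0.05 either, against 10.8% of all genes higher and 12.2% lower in *Tet2*-KO. The DESeq2 Wald test called none of the 7 where it called 7.22% of all genes (2.39% without the edgeR filter), and limma-voom with quality weights called none where it called 9.18%. The median log2 fold change of the members was 0.09, beside 0.01 for all genes, with 6 of 7 above 0 beside 52.3% of all genes. The intervals leave room for differences of moderate size, up to a 1.67-fold higher level for *Gpr6* and a 1.34-fold higher level for *Ppp1r1b*. They also allow lower levels, down to 0.79-fold for *Adora2a* and 0.88-fold for *Penk*. In bulk RNA from brain, a difference in the number of medium spiny neurons and a difference in RNA per neuron cannot be told apart.

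One mouse decided the count. Without *Tet2*-KO replicate 5, *Gpr6* (log2 fold change 0.48, edgeR adjusted p = 0.0344) and *Ppp1r1b* (0.28, edgeR adjusted p = 0.0202) passed the threshold, 2 of 7 members both higher, beside 3.7% of all genes called higher and 7.3% called lower in that fit. Over the 12 fits that each left out 1 mouse, the edgeR adjusted p ran up to 0.462 for *Gpr6* and up to 0.468 for *Ppp1r1b*, and the other 11 fits called no member. The median log2 fold change of the members was 0.17 without *Tet2*-KO replicate 5 and 0.03 without *Tet2*-KO replicate 1.

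*Tet2*-KO replicate 5 was the lowest of the 12 mice for all 7 members, and 6.12% of all genes had their lowest value in it. Its levels were below the WT median by 10.3% (*Rgs9*) to 35.4% (*Gpr6*). *Tet2*-KO replicate 1 was the highest for 6 members, where 12.8% of all genes had their highest value in it, and it exceeded the WT median by 25.8% (*Tac1*) to 72.7% (*Gpr6*). Between these mice *Gpr6* differed 2.67-fold and *Rgs9* 1.47-fold, while the highest and lowest WT mice differed 1.66-fold and 1.31-fold. The SD of log2 CPM was larger in the *Tet2*-KO group for all 7 members, as for 59.7% of all genes. The ratio of the SDs was 1.45 to 4.13 with a median of 1.97, beside a median of 1.12 for all genes.

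**Figure D2:**
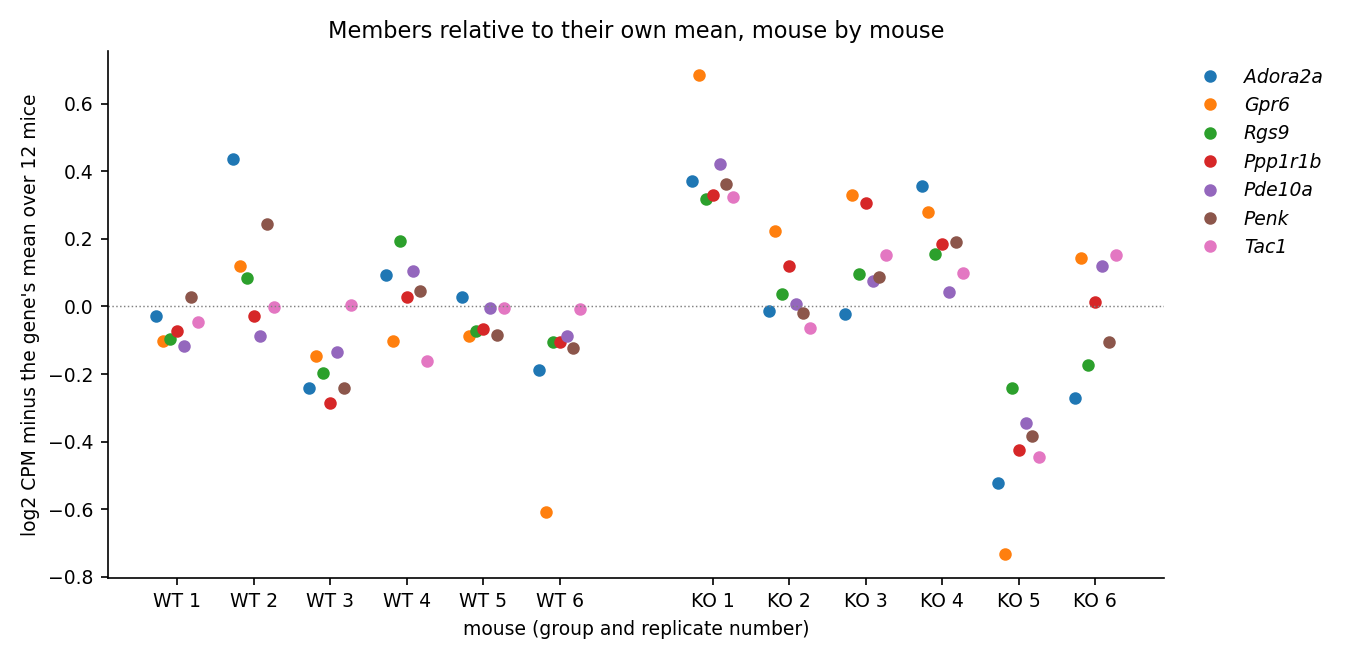
Log2 CPM of each member minus its own mean over the 12 mice (y axis), by mouse (x axis, group and replicate number), 1 point per gene. The 7 points of *Tet2*-KO replicate 1 all lie above 0 and those of *Tet2*-KO replicate 5 all below it.

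Other marker lists also differed between these mice. The summed CPM of 8 phagocyte genes was 1100 to 2862 with WT BM cells and 72.4 to 628.2 in 5 *Tet2*-KO mice, with replicate 1 the lowest, while *Tet2*-KO replicate 5 was at 1604, inside the WT range. All 8 phagocyte genes had a log2 fold change below 0 (median -1.70), 7 of them at an unadjusted p below 0.05. None passed the threshold of edgeR with all 12 mice. The DESeq2 Wald test called 3 (1 without the edgeR filter), limma-voom 7, and edgeR without *Tet2*-KO replicate 5 also 7. The summed level of 12 pan-neuronal genes was 4709 to 6362 CPM in the WT group and 5987 to 7791 in the *Tet2*-KO group, with a median log2 fold change of 0.22, and the median of 11 cortical genes was 0.26. At an unadjusted p below 0.05, 9 pan-neuronal genes, 7 cortical genes and 0 of the 7 members were higher, beside 10.8% of all genes. With limma-voom these counts were 9, 8 and 2, beside 12.1%. With edgeR without *Tet2*-KO replicate 5 they were 9, 8 and 4, beside 13.4%. With all 12 mice no gene of these lists passed the threshold of edgeR. The DESeq2 Wald test called 4 and 3 of them, limma-voom 5 and 3, and edgeR without *Tet2*-KO replicate 5 called 5 and 6. In *Tet2*-KO replicate 5 the pan-neuronal sum (6075) and the cortical sum (1387) lay inside the WT ranges, whereas its summed level of the 7 members (303.2) was below the lowest WT mouse (344.4). The sum of 34 further medium spiny neuron genes, the wider list below, was 2487 in that mouse, inside the WT range of 2417 to 2814. Its astrocyte sum (5245, lowest WT mouse 5299) and choroid plexus sum (446.5, lowest WT mouse 506.5) were also below the WT ranges. Its olfactory bulb sum (65.4, highest WT mouse 64.4) was above. In *Tet2*-KO replicates 1 and 3 the sums of the members, the pan-neuronal genes and the cortical genes were all above the WT ranges. In replicates 2 and 6 the pan-neuronal and cortical sums were above, with the member sums inside the WT range. Replicate 4 was the reverse, with a member sum of 426.9 above the highest WT mouse (413.7). Its pan-neuronal sum (5987) and cortical sum (1367) lay inside the WT ranges. Over the 12 group-centred mice, the members' mean pattern had a Pearson's r of 0.29 with the pan-neuronal list, 0.31 with the cortical list and -0.60 with the phagocyte list (Spearman's rho 0.13, 0.15 and 0.01). Without *Tet2*-KO replicates 1 and 5 these r values were -0.60, -0.52 and 0.68, so their direction rested on those 2 mice. The part of these lists in the members' levels was not tested.

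**Figure D3:**
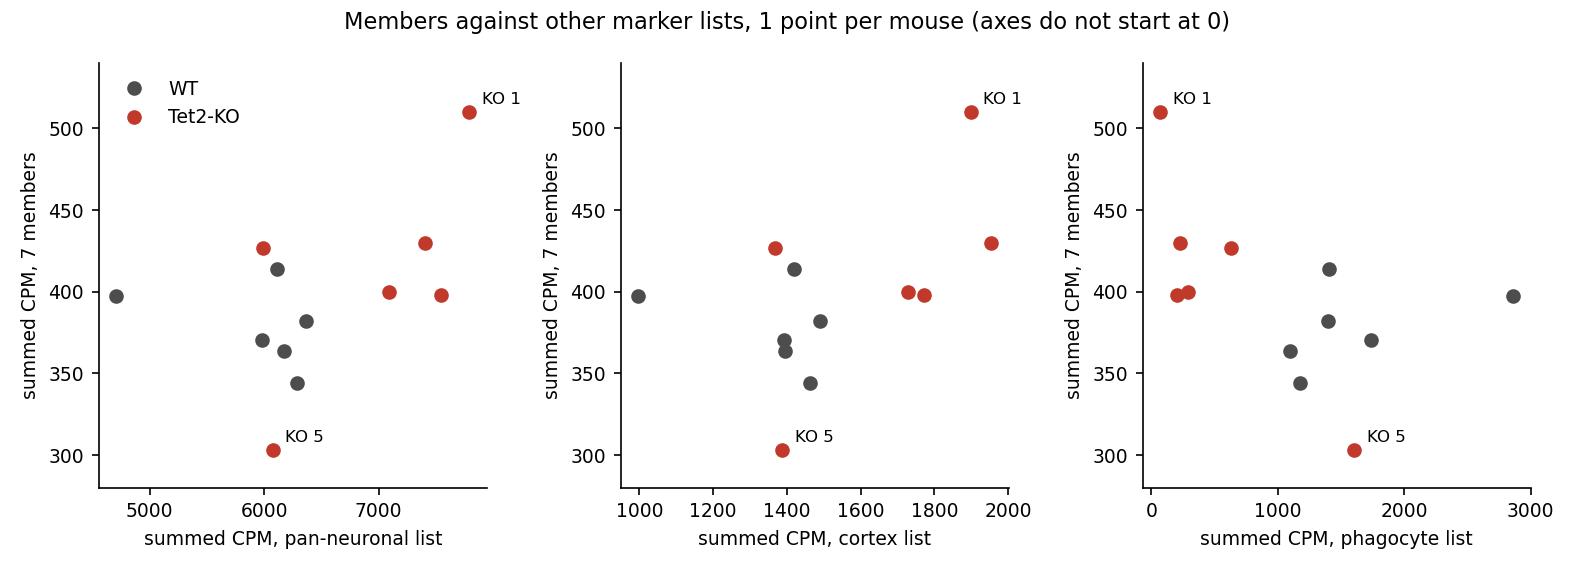
Summed CPM of the 7 members (y axis) against the summed CPM of the pan-neuronal, cortex and phagocyte lists (x axes), 1 point per mouse, with axes that do not start at 0. *Tet2*-KO replicate 5 (KO 5) lies lowest on the y axis at 303.2 but within the WT range on all 3 x axes.

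Measured against the mean log2 CPM of the pan-neuronal list in the same mouse, 6 of the 7 members were lower with *Tet2*-KO than with WT BM cells. The difference of these log2 ratios, *Tet2*-KO minus WT, ran from -0.24 (*Adora2a*) to 0.10 (*Gpr6*) with a median of -0.13, while the pan-neuronal list itself was higher by 0.20. Against this reference 5 members and the median turned from above 0 to below it, while *Adora2a* stayed below 0 and *Gpr6* above it. These ratios carry no test and are not given with a mouse left out. WT replicate 2 had the lowest pan-neuronal sum (4709 CPM), with the other WT mice at 5982 to 6362. Without it the edgeR median log2 fold change was 0.16 for the pan-neuronal list and 0.11 for the members. With all 12 mice these medians were 0.22 and 0.09, so the gap to the pan-neuronal list depended in part on that mouse.

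A wider list held 35 further genes known from medium spiny neurons, whose source cells brain RNA does not show. Of these, 34 were tested. None passed the threshold, 9 were higher and 1 lower at an unadjusted p below 0.05, and 30 of 34 had a log2 fold change above 0 (median 0.13), beside 10.8%, 12.2% and 52.3% of all genes. The DESeq2 Wald test called 2 of them, beside 7.22% of all genes, and limma-voom 4, beside 9.18%. Among the dopamine receptors, *Drd1* lay between 19.1 and 22.8 CPM with WT BM cells and between 18.0 and 27.9 with *Tet2*-KO BM cells (log2 fold change 0.24, SE 0.094, edgeR adjusted p = 0.158). *Drd2* lay between 15.3 and 19.7 and between 13.7 and 23.7 CPM (0.08, SE 0.13, edgeR adjusted p = 0.756). The difference between the D1 and D2 receptor genes in fold change was not tested.

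Of the signalling genes, *Gnal*, the G protein alpha subunit that couples striatal receptors to adenylyl cyclase, had a log2 fold change of 0.15 (SE 0.070, edgeR adjusted p = 0.208). *Adcy5*, the main striatal adenylyl cyclase, had 0.14 (SE 0.074, edgeR adjusted p = 0.268), and *Pde1b*, a calcium-dependent phosphodiesterase, 0.15 (SE 0.069, edgeR adjusted p = 0.210). *Rasd2*, a small GTPase of the striatum, had 0.28 (SE 0.091, edgeR adjusted p = 0.128), *Arpp21*, a cyclic AMP-regulated phosphoprotein, 0.27, and *Rgs7bp*, which binds RGS proteins of the *Rgs9* family, 0.22. In all 6 genes the groups overlapped, and *Tet2*-KO replicate 5 was the lowest of the 12 mice in *Gnal*, *Adcy5*, *Pde1b* and *Rasd2*.

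The largest log2 fold change of the wider list was that of *Kcnj4*, an inward rectifier potassium channel, at 0.38 (SE 0.12, edgeR adjusted p = 0.123), with 50.7 to 75.3 CPM in the WT group and 64.6 to 107.5 in the *Tet2*-KO group. The dynorphin precursor *Pdyn* had 0.19 (SE 0.085, edgeR adjusted p = 0.192) and the transcription factor *Bcl11b* 0.21 (SE 0.095, edgeR adjusted p = 0.204). *Eya1*, a transcriptional coactivator listed for the direct pathway, was the 1 gene lower at an unadjusted p below 0.05, with a log2 fold change of -0.25 (SE 0.092, edgeR adjusted p = 0.148). It lay between 18.8 and 23.0 CPM with WT BM cells, and 5 of 6 *Tet2*-KO mice were below that range while replicate 5 was above it. Without *Tet2*-KO replicate 5, 6 genes of the wider list passed the threshold, 5 higher and *Eya1* lower, beside 3.7% of all genes higher and 7.3% lower.

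**Figure D4:**
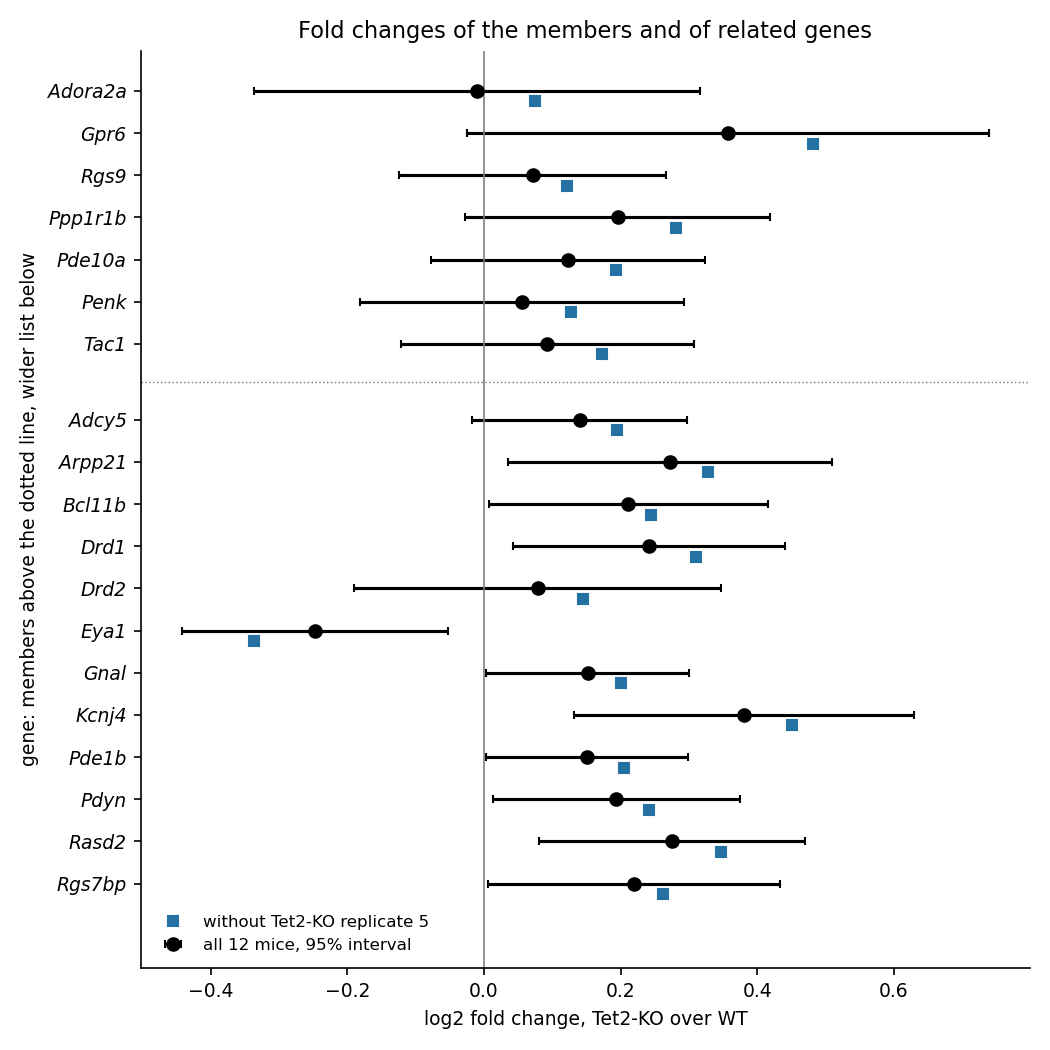
Log2 fold change, *Tet2*-KO over WT (x axis), of the 7 members and 12 genes of the wider list (y axis), as circles with 95% intervals from all 12 mice (edgeR) and as squares without *Tet2*-KO replicate 5. All 7 members' intervals include 0, and each square of a member lies to the right of its circle.

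After the group means were removed, the members' log2 CPM went together across the mice. Over the 21 pairs of members Pearson's r had a median of 0.81, from 0.49 (*Rgs9* with *Tac1*) to 0.96 (*Adora2a* with *Penk*), and Spearman's rho a median of 0.69. These correlations are a description over 12 mice that share their libraries between genes. They rested largely on 2 mice, since without *Tet2*-KO replicates 1 and 5, the farthest from the median, the median r was 0.41 and the range -0.46 to 0.93. Within the 6 *Tet2*-KO mice alone the median was 0.89, and within the 6 WT mice alone it was 0.40.

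A few pairs kept their value. The indirect-pathway genes *Adora2a* and *Penk* had r = 0.93 without the 2 mice and 0.94 in the WT mice alone, and *Rgs9* with *Ppp1r1b* had 0.83 and 0.85. Across these pairs, r was 0.80 and 0.74 for *Rgs9* with *Penk* and 0.79 and 0.73 for *Adora2a* with *Rgs9*. It was 0.74 and 0.76 for *Ppp1r1b* with *Penk* and 0.60 and 0.68 for *Adora2a* with *Ppp1r1b*. *Gpr6*, the remaining indirect-pathway gene, had 0.63 with *Adora2a* and 0.60 with *Penk* without the 2 mice, beside 0.44 with *Rgs9*, 0.34 with *Ppp1r1b* and 0.08 with *Pde10a*. *Tac1*, the direct-pathway gene, had an r below 0 with each of the other 6 members over those 10 mice, from -0.46 with *Rgs9* to -0.05 with *Gpr6*. WT replicate 2, for instance, was the highest of its group for *Adora2a*, *Gpr6* and *Penk* but was at 15.3 CPM for *Tac1*, where the WT median was 15.3. *Tac1* varied little between the WT mice (SD of log2 CPM 0.064, 186 to 215 counts). Its lowest WT mouse, replicate 4 at 13.7 CPM, was the highest WT mouse for *Rgs9*, *Ppp1r1b* and *Pde10a*. The part of that mouse and of counting noise in these r values was not tested.

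**Figure D5:**
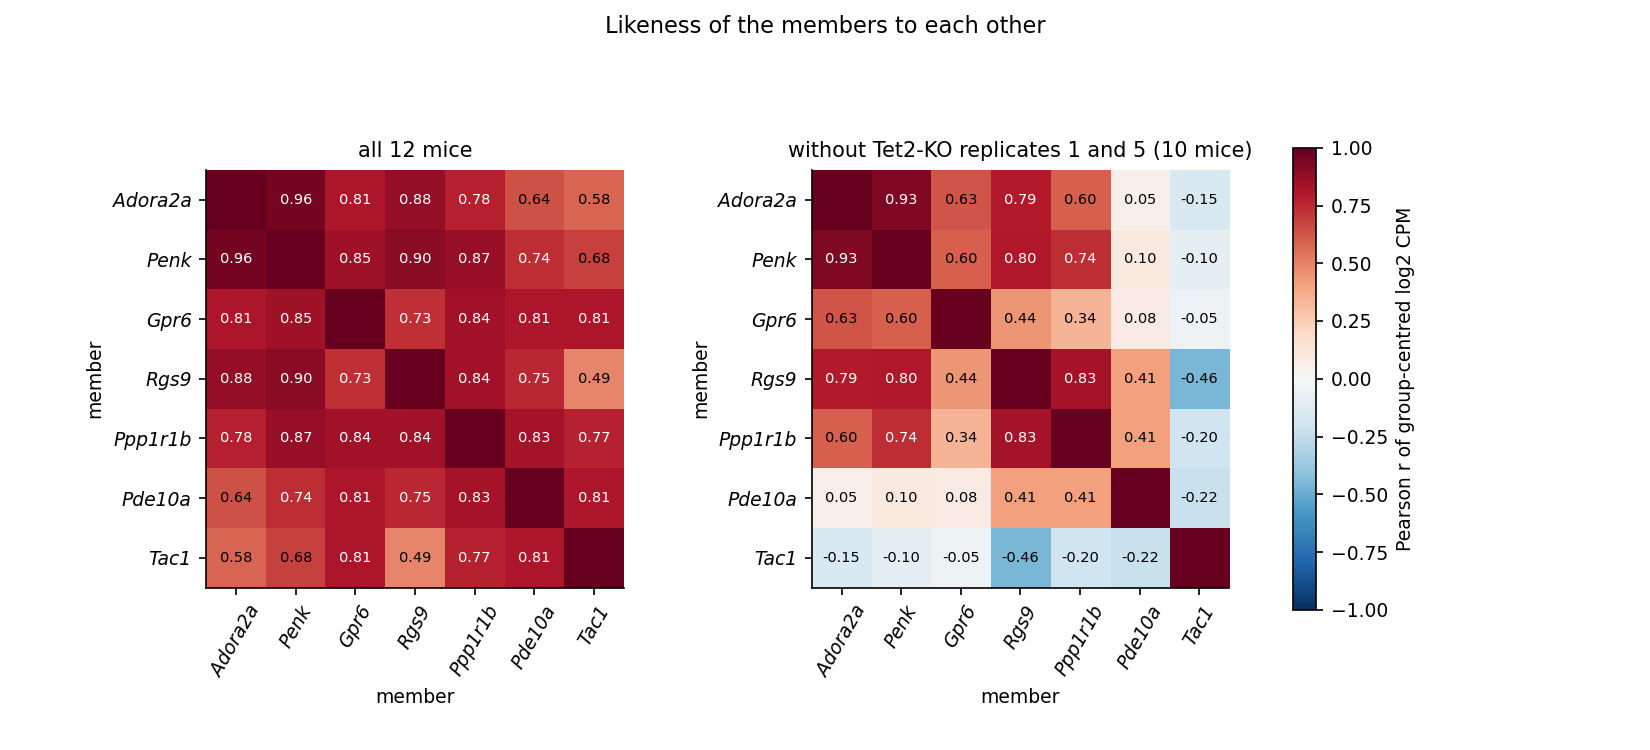
Pearson's r of group-centred log2 CPM for each pair of members (both axes list the 7 members), over all 12 mice on the left and without *Tet2*-KO replicates 1 and 5 on the right. *Adora2a* with *Penk* is at 0.96 and 0.93, while the *Tac1* row falls below 0 on the right.

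The genes most like the members were ranked by Pearson's r of their group-centred log2 CPM with the members' mean standardised pattern over the 12 mice. Of the first 10, 5 were in the wider list, among them *Pde1b* (r = 0.916), *Pdyn* (0.913), *Adcy5* (0.896) and *Rasd2* (0.884). The other 5 were *Ramp1* (0.899), *Adk* (0.893), *Atp6v0b* (0.881), *Gorasp1* (0.878) and *Ift122* (0.876). Without *Tet2*-KO replicates 1 and 5 these values fell to between 0.336 (*Rasd2*) and 0.824 (*Pdyn*). In the wider list 10 of 34 genes had an r above 0.8, beside 0.247% of all genes, and its median r was 0.47 beside -0.01, or 0.32 beside 0.00 without the 2 mice. *Drd2* (0.85) and *Drd1* (0.84) were among the 10, whereas *Kcnj4*, with the largest fold change of the wider list, had 0.42. Without the 2 mice *Kcnj4* had -0.22, *Gnal* and *Bcl11b* each -0.32, *Rgs7bp* -0.49 and *Arpp21* -0.51. The other genes higher at an unadjusted edgeR p below 0.05 were *Rasd2*, *Drd1* (0.41), *Pde1b* (0.59) and *Pdyn*. WT replicate 2, lowest in the cortical sum (997.2 CPM), was also the lowest mouse for *Kcnj4*, *Bcl11b*, *Rgs7bp* and *Arpp21*.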

How the data were processed

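The authors depleted ribosomal RNA and sequenced paired reads. They deposited whole-number read counts per gene, without normalization. Per the labels' processing notes, Trimmomatic 0.36, STAR 2.5.2b, featureCounts, Subread 1.5.2 and mm10 were used. No column belonged to another sample. Each library was counted as 1 mouse, and same-group libraries differed by more than sampling noise (chi-square per degree of freedom 1.91 to 24.5).

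Here the counts were filtered with filterByExpr, TMM-scaled and tested in R 4.3.3 with edgeR 4.0.16 (quasi-likelihood F test, robust, no covariates, Benjamini-Hochberg over 20290 genes, threshold 0.05). Standard errors are the log2 fold change over the square root of F. Log2 CPM used a prior count of 2, and exact permutation tests a pseudocount of 0.1 CPM over 924 assignments (smallest p 0.00216). Alternatives used DESeq2 1.42.0, limma 3.58.1, other scalings, no filter, a replicate block and each mouse left out. The scripts were tested on simulated data.

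The members and lists were chosen with earlier results of these data known. Named genes are the 7 members, the genes of the wider list with the smallest unadjusted p below 0.05 (up to 10), *Drd1*, *Drd2*, *Adcy5*, *Gnal* and *Pdyn*, and the 10 genes most like the members. The single values of 1 gene are not reported here. Lists also covered striatal interneurons, hippocampus, thalamus, hypothalamus, cerebellum, olfactory bulb, astrocytes, reactive astrocytes, microglia, oligodendrocytes, endothelium, red blood cells and choroid plexus.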

Additional observations from a re-analysis of the deposited data

Results flagged for a closer look

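Single mice stood apart from the rest of their group in 3 of 40 groups, taken over 20 named genes in 2 groups each, where the gap to the nearest other mouse was large against the range of the group. Chance flags about 1 in 20 groups. *Tac1* in WT replicate 4 was at 13.7 CPM, below the other WT mice at 14.9 to 15.4. *Rasd2* in the same mouse was at 77.1 CPM, above the other WT mice at 63.6 to 67.2. *Eya1* in *Tet2*-KO replicate 5 was at 23.1 CPM, above the other *Tet2*-KO mice at 15.6 to 17.3, in the mouse with the lowest level of all 7 members.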

How the results depend on the processing

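No member passed the threshold under any alternative except without *Tet2*-KO replicate 5, and the median log2 fold change of the members stayed above 0 throughout. At an unadjusted p below 0.05, limma-voom and upper quartile scaling each gave 2 higher members and edgeR without a filter 1. EdgeR with its filter and the DESeq2 test gave 0. Of all genes, 12.1% were higher at that p with limma-voom, 14.8% with upper quartile scaling and 7.03% without a filter. With edgeR and its filter 10.8% were. Upper quartile scaling also raised fold changes in general, to a log2 median of 0.04 over the 20290 genes, beside 0.01 with TMM scaling. The part of that shift in its member calls was not tested. The sign of *Adora2a* turned with limma-voom (0.050) and upper quartile scaling (0.027), and with the latter also *Adk* (0.0064) and *Gorasp1* (0.011). In the wider list, DESeq2 put 2 genes past the threshold and limma-voom 4. Over all genes, edgeR called 5, the DESeq2 Wald test 1464, limma-voom 1863, edgeR without a filter 44, and edgeR with a replicate block 0 (1924 genes higher and 2405 lower at an unadjusted p below 0.05). The DESeq2 test was also run without the edgeR filter, an alternative added after its count of 1464 had been seen to differ from an earlier account of these data. It called 902 genes, 1 gene of the wider list (*Kcnj4*) and no member, so the filter moved the DESeq2 counts. The cause of the other differences was not tested.

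Leaving out each mouse in turn, the members past the threshold numbered 0 to 2, genes of the wider list 0 to 6 and all genes 0 to 2257, the highest values all without *Tet2*-KO replicate 5. The log2 fold change ran from -0.093 to 0.086 for *Adora2a*, 0.25 to 0.48 for *Gpr6*, 0.01 to 0.12 for *Rgs9*, 0.15 to 0.28 for *Ppp1r1b*, 0.04 to 0.19 for *Pde10a*, -0.016 to 0.13 for *Penk* and 0.03 to 0.17 for *Tac1*. It ran from -0.013 to 0.15 for *Drd2*, -0.052 to 0.011 for *Adk* and -0.065 to 0.0056 for *Gorasp1*. The medians ran from 0.03 to 0.17 for the members and 0.08 to 0.17 for the wider list, and the median pair correlation from 0.57 to 0.84. That correlation was 0.41 without the 2 farthest mice and 0.40 in the WT mice alone, both chosen after seeing the data.

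Replicate numbers did not pair the mice. The 6 same-numbered pairs correlated between -0.17 and 0.23, with 1 above 0.1, and 1 WT mouse was most like its own number. With the replicate block the members' median was 0.08, *Gpr6* was at 0.33 and *Ppp1r1b* at 0.18, and no member was called. Depth limits *Gpr6* most, with 39 to 132 counts per mouse.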

Other observations

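Markers of other brain regions had medians that depended on single mice. The median log2 fold change was 0.07 for 6 genes of striatal interneurons and ran from -0.0008 (without WT replicate 5) to 0.22 (without WT replicate 2) when each mouse was left out. It was 0.08 for 6 hippocampal genes, -0.03 without WT replicate 2 and up to 0.14 without WT replicate 1. It was -0.04 for 8 thalamic genes and 0.01 without *Tet2*-KO replicate 3. It was 0.08 for 7 hypothalamic genes, -0.17 once *Tet2*-KO replicate 4 was left out and -0.04 once WT replicate 1 was. For 6 olfactory bulb genes it was -0.06, -0.12 once *Tet2*-KO replicate 2 was left out and -0.01 once WT replicate 4 was. For 7 cerebellar genes it was 0.31, from 0.23 to 0.40. No gene of these lists passed the threshold of edgeR with all 12 mice. At an unadjusted p below 0.05, 1 striatal interneuron gene, 1 hippocampal gene, 1 thalamic gene and 2 cerebellar genes were higher, and 1 gene each of the thalamic, hypothalamic and cerebellar lists was lower.

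Among glial and vascular lists, the median was -0.79 for 6 reactive astrocyte genes, at most -0.59 when any mouse was left out. It was -0.21 for 8 microglial genes, and leaving out a mouse gave -0.08 (*Tet2*-KO replicate 1), -0.12 (WT replicate 2) or -0.33 (*Tet2*-KO replicate 4). It was -0.15 for 6 endothelial genes and -0.08 without WT replicate 2. The medians of 6 astrocyte and 6 oligodendrocyte genes, both 0.01, changed sign with the mouse left out, from -0.04 to 0.05 and from -0.05 to 0.07. The median was 0.54 for 5 red blood cell genes, from 0.40 to 0.66, and -0.26 for 6 choroid plexus genes, from -0.35 to -0.19. With all 12 mice edgeR again put no gene past the threshold. At an unadjusted p below 0.05, 3 reactive astrocyte genes, 2 endothelial genes and 2 choroid plexus genes were lower, and 3 red blood cell genes and 1 astrocyte gene were higher.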
